A study of Homo sapiens with 6 samples.

Results

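Aminoacyl-tRNA synthetases are the enzymes that load each amino acid onto its tRNA. Their transcripts were followed here in Panc1 cells, an established human line derived from pancreatic ductal cancer, after BRQ or the solvent DMSO. The members were the rows of the deposited table whose symbol is a synthetase of the form xARS, xARS1, xARS2 or xARS3, plus EPRS1, FARSA, FARSB and the scaffold genes AIMP1, AIMP2 and EEF1E1. This gave 41 of the 16197 genes in the table: 21 cytosolic enzymes or subunits, 17 mitochondrial enzymes, whose symbols end in 2, and 3 scaffold genes. Each group held 3 libraries of total RNA, 3 from cells given BRQ and 3 from cells given DMSO, all grown in the same serum-containing medium. DHODH, named in the study's title as the target of inhibition, makes a precursor of pyrimidine nucleotides, and BRQ is taken to be its inhibitor brequinar. No dose or exposure time was stated. Separate cultures are not named in the labels, and the p-values therefore reflect library-to-library spread, possibly of technical origin. In such bulk RNA, fewer cells of a kind and less RNA per cell cannot be told apart.

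Each synthetase first activates its amino acid with ATP and then transfers it to the matching tRNA, which carries it to the ribosome. Human cells keep separate nuclear genes for most cytosolic and mitochondrial enzymes, while GARS1 and KARS1 each give the enzyme of both compartments. Several cytosolic enzymes sit in a multi-synthetase complex held together by AIMP1, AIMP2 and EEF1E1. The enzymes form a pair of unrelated structural classes, I and II. Many of the cytosolic genes are known targets of ATF4, the transcription factor of the amino acid response.

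Values are FPKM, fragments scaled to gene length and library total, so levels can be compared between genes. Low values gave relative depths of 1.02 to 1.03 for the BRQ libraries and 0.958 to 0.986 for the DMSO libraries. Of 7 markers of ductal carcinoma epithelium, 6 were well expressed (KRT8, KRT18, KRT19, EPCAM, SOX9 and MUC1) and KRT7 was at 1.31 ± 0.136 FPKM in BRQ and 1.24 ± 0.0939 in DMSO. CDKN2A, which this line is generally described as lacking, was at 32.5 ± 2.13 FPKM in BRQ and 46.3 ± 2.73 in DMSO, and whether the cells match the named line was not tested. Erythroid transcripts set BRQ libraries 1 and 2 apart. The summed FPKM of the 6 of 8 erythroid markers in the table was 88.8, 46 and 1.85 in BRQ libraries 1, 2 and 3, against 0.592 to 2.01 in DMSO. Only LUM of 6 fibroblast markers and CD68 of 5 leukocyte markers exceeded the filter, and the 3 endothelial markers did not. LUM averaged 78.6 ± 2.55 FPKM in BRQ and 52.5 ± 0.898 in DMSO and CD68 averaged 158 ± 4.89 and 107 ± 3.09, while the markers that define those cell types (COL1A1, COL1A2 and PTPRC among them) averaged under 1 FPKM in both groups.

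The comparison asks how synthetase transcripts differed after DHODH inhibition. Genes averaging 1 FPKM or more over the 6 libraries were tested with limma on log2(FPKM + 1), with Benjamini-Hochberg adjustment over all 10689 tested genes and a threshold of 0.05. Fold changes below are BRQ over DMSO on that log2 scale with their SE, which understates changes of genes near 1 FPKM, and levels are means ± SD (n = 3 in each group). Of the 41 members 40 were tested. Only TARS3, a further cytosolic threonine enzyme, lay under the filter, at 1.16, 0.978 and 0.826 FPKM in BRQ and 0.545, 0.863 and 0.78 in DMSO.

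Transcripts of the cytosolic synthetases were mostly lower in BRQ. Of 20 tested cytosolic members, 13 fell (65%), 3 rose (15%) and 4 did not pass. Over all tested genes, 25.2% fell and 36.9% rose, and 62.1% passed in either direction. Of 17 mitochondrial enzymes, 8 fell (47.1%), 3 rose (17.6%) and 6 did not pass. The difference between the compartments was not tested. None of the 3 scaffold genes passed. The median log2 fold change was -0.19 for the cytosolic members and -0.07 for the mitochondrial enzymes, beside 0.06 over all tested genes. The median over all tested genes was 0.007 under median-of-ratios and 0.008 under TPM scaling. No member moved by 2-fold or more on this scale. In plain FPKM the BRQ mean of FARSB was 0.482 of its DMSO mean. Its log2 fold change was -1.03 with a pseudocount of 0.1 and -1.03 under TPM scaling. Counting values rather than calls, 14 cytosolic and 7 mitochondrial members had all 3 BRQ values under all 3 DMSO values, as did 27.9% of tested genes. In 4 cytosolic and 4 mitochondrial members all BRQ values lay above all DMSO values, as in 39.3% of tested genes. Without BRQ libraries 1 and 2, which carried the erythroid transcripts, 11 cytosolic and 6 mitochondrial members fell and 2 cytosolic and 3 mitochondrial members rose, with 1 BRQ library left to compare. The part of those transcripts in the results was otherwise not tested.

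**Figure D1:**
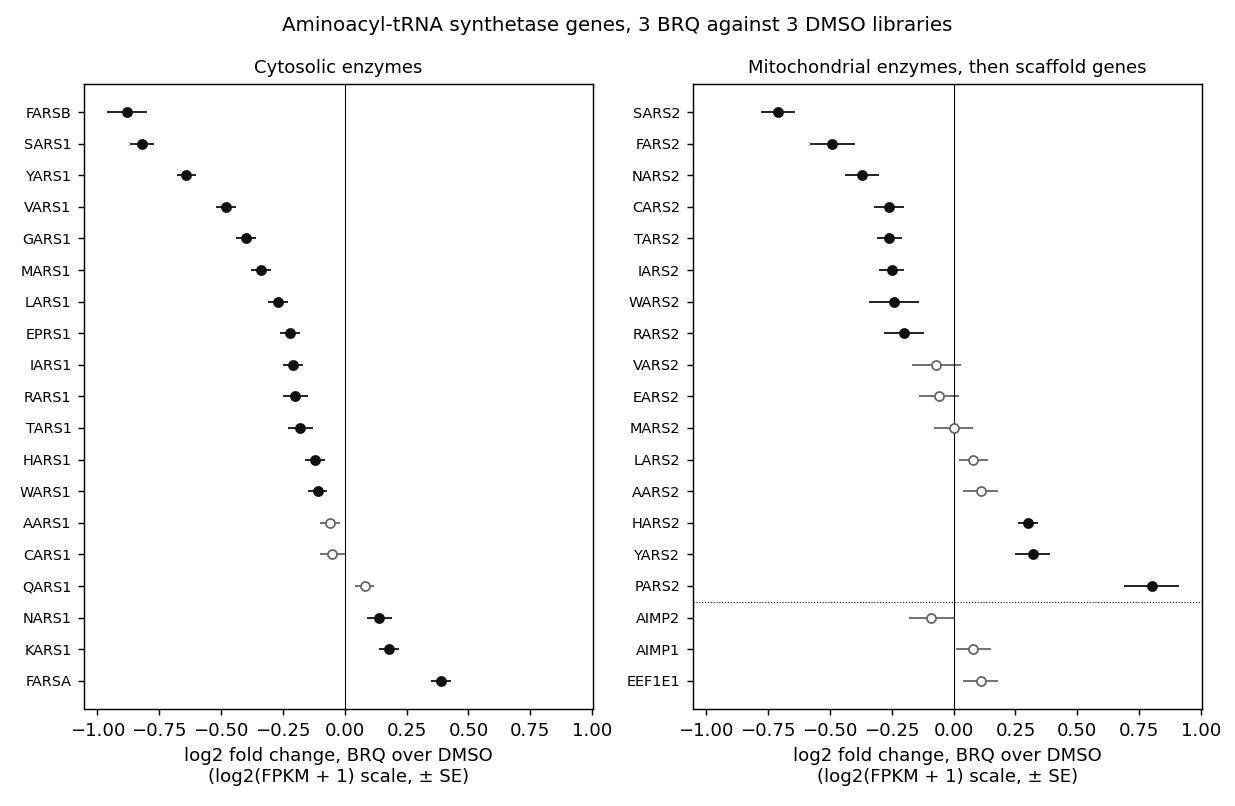
Log2 fold change (BRQ over DMSO, x axis) with SE for the synthetase and scaffold genes reported by name. Filled points passed a limma adjusted p of 0.05 and open points did not; 13 cytosolic members, 8 mitochondrial enzymes and none of the 3 scaffold genes were filled on the left of 0.

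The summed level of the cytosolic members was 1751.8, 1732.7 and 1743.1 FPKM in BRQ libraries 1, 2 and 3, against 1985.6, 1922.5 and 1928.5 FPKM in DMSO. The BRQ sums were all under the DMSO sums, by 10.4% on average. The mitochondrial enzymes summed to 205, 197 and 197 FPKM in BRQ and 211, 206 and 202 in DMSO, ranges that overlapped. WARS1, which charges tryptophan, made up 26.1% ± 0.345 of the summed FPKM of all members in BRQ and 25.6% ± 0.56 in DMSO. It ranked 86th in the whole table by mean level. The cytosolic levels ran down through AARS1 and KARS1 to FARSB and TARS3, and the mitochondrial ones from IARS2 at the top to FARS2 at the bottom.

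Among cytosolic enzymes outside the complex, the serine enzyme SARS1 gave the smallest adjusted p. SARS1 (chromosome 1, 109213893 to 109238182, GRCh38) had 55.4, 51.7 and 56.1 FPKM in BRQ, against 96.8, 99.2 and 93.3 FPKM in DMSO. The groups lay far apart (log2 fold change -0.82 ± 0.05, adjusted p = 2.25e-07). YARS1, the tyrosine enzyme (chromosome 1, 32775239 to 32817358), had 57.7, 55.5 and 56 FPKM in BRQ, against 91.5, 86 and 88.2 in DMSO. Its BRQ values also all lay under the DMSO values (log2 fold change -0.64 ± 0.04, adjusted p = 4.93e-07). The valine enzyme VARS1, which associates with elongation factor eEF1, had 35.9, 37.5 and 36.5 FPKM in BRQ, against 50.1, 53 and 51.9 in DMSO (log2 fold change -0.48 ± 0.04, adjusted p = 4.27e-06). The glycine enzyme GARS1 averaged 77.6 ± 1.7 FPKM in BRQ and 103 ± 4.78 in DMSO, and the threonine enzyme TARS1 averaged 90.5 ± 4.01 and 103 ± 4.46. Both fell (adjusted p = 2.03e-05 and 0.00619).

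Smaller differences were seen for the histidine, tryptophan, alanine and cysteine enzymes. HARS1 had 64.3, 62.4 and 64.7 FPKM in BRQ, against 69.9, 66.6 and 71.7 in DMSO (log2 fold change -0.12 ± 0.04, adjusted p = 0.0313). WARS1, known as an interferon-inducible gene, had 519.7, 524 and 517 FPKM in BRQ, against 585, 543 and 561 in DMSO (log2 fold change -0.11 ± 0.04, adjusted p = 0.0275). The groups of HARS1 and WARS1 did not overlap, but both calls ended when BRQ library 2, DMSO library 1 or DMSO library 3 was left out, and that of WARS1 also without BRQ library 3. Without BRQ libraries 1 and 2 together the adjusted p was 0.194 for HARS1 and 0.0861 for WARS1. Without the filter on low values the adjusted p of WARS1 was 0.0565. AARS1 had 156, 164 and 162 FPKM in BRQ, against 166, 169 and 168 in DMSO, separate groups that did not pass (log2 fold change -0.06 ± 0.04, adjusted p = 0.187). It passed as lower when libraries were rescaled by median-of-ratios (log2 fold change -0.12, adjusted p = 0.0182) or to TPM (-0.12, adjusted p = 0.0251) and with the span trend removed (-0.09, adjusted p = 0.0444). CARS1, the cysteine enzyme, stood at 21.8 ± 0.71 FPKM in BRQ and 22.7 ± 0.124 in DMSO (adjusted p = 0.349).

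The cytosolic phenylalanine enzyme is built of a pair of alpha subunits, from FARSA, and a pair of beta subunits, from FARSB, and the transcripts of its subunits moved in opposite directions. FARSA (chromosome 19, 12922479 to 12933711) had 88.3, 88.8 and 90.1 FPKM in BRQ, against 69.4, 67.5 and 65.9 in DMSO. It rose (log2 fold change 0.39 ± 0.04, adjusted p = 9.48e-06). FARSB (chromosome 2, 222566899 to 222656092) had 3.53, 3.59 and 3.45 FPKM in BRQ, against 7.64, 7.77 and 6.54 in DMSO. It had the lowest log2 fold change of all tested members (-0.88 ± 0.08, adjusted p = 3.65e-06). The ratio of FARSA to FARSB was 25, 24.7 and 26.1 in BRQ, against 9.08, 8.69 and 10.1 in DMSO.

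**Figure D2:**
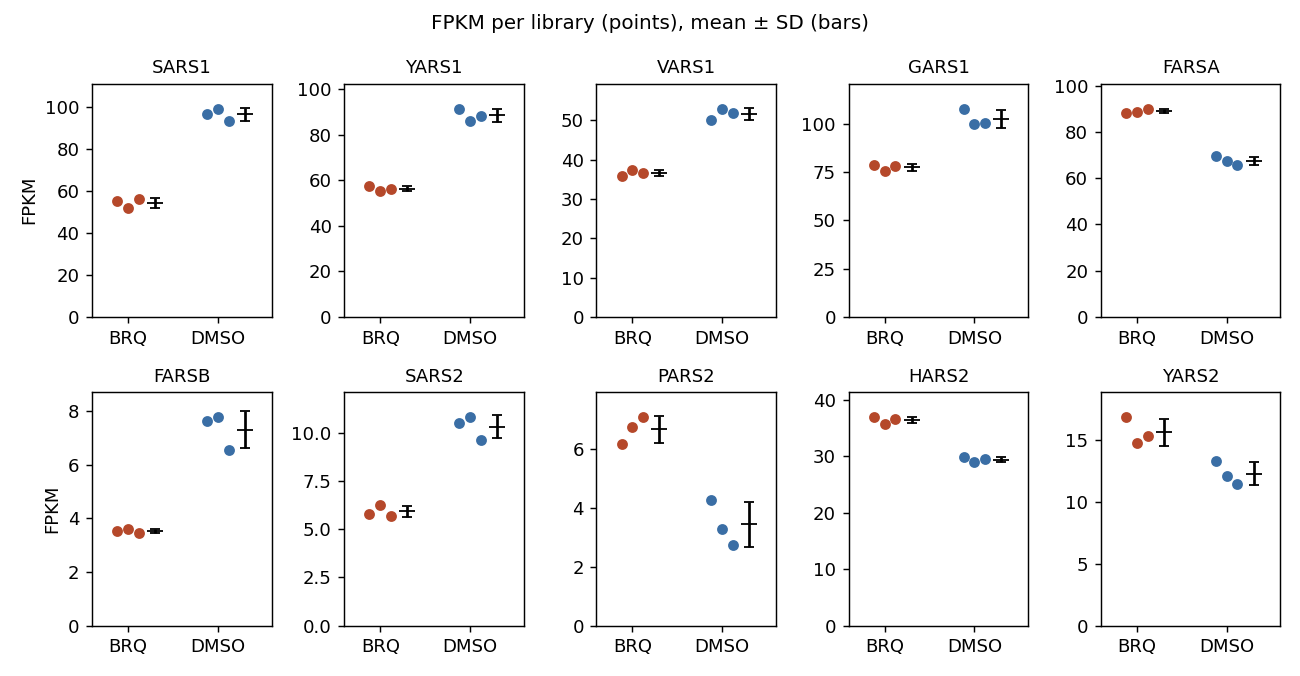
FPKM (y axis, from 0) in each of the 3 BRQ and 3 DMSO libraries for 10 synthetase genes, with mean ± SD beside the points. No BRQ point overlaps a DMSO point; SARS1, YARS1, VARS1, GARS1, FARSB and SARS2 lie lower in BRQ, and FARSA, PARS2, HARS2 and YARS2 lie higher.

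In the multi-synthetase complex several enzymes fell and no scaffold gene passed. Of the 11 complex genes, 5 fell (45.5%), 1 rose (9.09%) and 5 did not pass, and the median log2 fold change was -0.09. Of all tested genes, 62.1% passed, 25.2% as lower and 36.9% as higher, beside 54.5% of the complex genes. MARS1, the methionine enzyme, had 108, 111 and 109 FPKM in BRQ, against 139.8, 138 and 137 in DMSO (log2 fold change -0.34 ± 0.04, adjusted p = 1.71e-05). LARS1, the leucine enzyme, averaged 37.7 ± 0.901 FPKM in BRQ and 45.6 ± 0.821 in DMSO (adjusted p = 2.61e-04). EPRS1, a fusion that charges both glutamate and proline tRNAs, averaged 57 ± 2.3 and 66.5 ± 0.508 FPKM (log2 fold change -0.22 ± 0.04, adjusted p = 0.00107). These 3 genes and RARS1, the arginine enzyme (49.8 ± 3.53 and 57.4 ± 1.23 FPKM, adjusted p = 0.00675), were lower in every BRQ library than in any DMSO library. IARS1, the isoleucine enzyme, had 52.6, 53.9 and 54.2 FPKM in BRQ, against 63.2, 61.7 and 61.5 in DMSO (log2 fold change -0.21 ± 0.04, adjusted p = 8.17e-04).

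Other complex enzymes did not fall. KARS1, the lysine enzyme, had 140.02, 134 and 136 FPKM in BRQ, against 124, 121 and 117 in DMSO, and rose (log2 fold change 0.18 ± 0.04, adjusted p = 0.00253). QARS1, the glutamine enzyme, had 52.5, 53.5 and 52.5 FPKM in BRQ, against 49.3, 50.1 and 50.9 in DMSO. Its groups were separate but it did not pass (log2 fold change 0.08 ± 0.04, adjusted p = 0.12), its sign turned to -0.02 with a genomic span trend removed, and it passed as higher without the filter on low values (adjusted p = 0.047). Outside the complex NARS1, the asparagine enzyme, also rose, with 49.2, 45.9 and 46 FPKM in BRQ, against 42.3, 43.7 and 41.6 in DMSO (log2 fold change 0.14 ± 0.05, adjusted p = 0.0191). That call was lost under median-of-ratios and TPM scaling (adjusted p = 0.122 and 0.109), with the span trend removed (0.237), without DMSO library 1 or 3 and without BRQ libraries 1 and 2 together (0.147).

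The scaffold genes overlapped between groups. AIMP1 had 14, 12.1 and 11.7 FPKM in BRQ and 12.1, 11.5 and 12 in DMSO (adjusted p = 0.341). AIMP2 had 15.4, 12.5 and 14.3 FPKM in BRQ and 17.1, 15 and 13.2 in DMSO (adjusted p = 0.415). Exons of AIMP2 overlap those of EIF2AK1 on the other strand over 28.9% of their length in GENCODE 29, and strand was not given, so its reads are uncertain. EEF1E1 had 25.5, 23.5 and 24.6 FPKM in BRQ and 25.1, 22.6 and 20.6 in DMSO (adjusted p = 0.187). It passed as higher without DMSO library 1 (log2 fold change 0.18, adjusted p = 0.0361). Exons of EEF1E1 overlap those of EEF1E1-BLOC1S5 on the same strand over 18.7% of their length. Those of AIMP1 overlap exons of TBCK on the other strand over 11.6%, so the reads of both genes are uncertain too.

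By structural class, 7 of 9 tested cytosolic class I enzymes fell and none rose. Among 10 cytosolic class II members, 5 fell and 3 rose. Over all tested genes 25.2% fell and 36.9% rose in the reported fit, and the directions were more even under either rescaling, as given above. The difference between the classes was not tested. Calls of WARS1 and IARS1 in class I and of HARS1 and NARS1 in class II were lost in some refits. EPRS1 holds an enzyme of each class and is in neither count. The summed class I level averaged 938 ± 3.71 FPKM in BRQ and 1079.3 ± 25.4 in DMSO, most of it WARS1. In mitochondria, 4 of 9 class I and 4 of 8 class II enzymes fell.

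The mitochondrial enzymes charge the tRNAs that the mitochondrial genome encodes. SARS2, the serine enzyme, had 5.8, 6.26 and 5.7 FPKM in BRQ, against 10.5, 10.8 and 9.65 in DMSO, and gave the smallest adjusted p among them (log2 fold change -0.71 ± 0.07, adjusted p = 6.23e-06). Exons of SARS2 overlap those of a further annotated locus on its strand over 46.2% of their length, so its reads are uncertain. SARS1 and SARS2 both fell, and the ratio of SARS1 to SARS2 was 9.22 ± 0.839 in BRQ and 9.36 ± 0.271 in DMSO. NARS2, the asparagine enzyme, had 6.97, 6.2 and 5.84 FPKM in BRQ, against 8.1, 8.66 and 8.64 in DMSO (log2 fold change -0.37 ± 0.07, adjusted p = 0.00107). TARS2, the threonine enzyme, had 21.5, 19.5 and 20.1 FPKM in BRQ, against 24.8, 25 and 24 in DMSO (log2 fold change -0.26 ± 0.05, adjusted p = 0.00113). In NARS2 and TARS2 the groups were separate. IARS2, the isoleucine enzyme and the most abundant of the mitochondrial set, had 37.2, 34.7 and 34.2 FPKM in BRQ, against 44.4, 41.1 and 41.1 in DMSO (adjusted p = 0.00147). CARS2, the cysteine enzyme, averaged 9.12 ± 0.157 FPKM in BRQ and 11.1 ± 0.246 in DMSO (adjusted p = 0.00183).

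The other decreases were of low-level genes. FARS2, the phenylalanine enzyme, had 0.925, 0.948 and 0.977 FPKM in BRQ, against 2.01, 1.76 and 1.47 in DMSO (log2 fold change -0.49 ± 0.09, adjusted p = 9.63e-04). Its BRQ mean lay under the filter, which it passed through its DMSO values. RARS2, the arginine enzyme, had 2.48, 2.66 and 2.77 FPKM in BRQ, against 3.16, 3.36 and 3.01 in DMSO (log2 fold change -0.20 ± 0.08, adjusted p = 0.0399). WARS2, the tryptophan enzyme, had 1.99, 1.78 and 1.69 FPKM in BRQ and 2.62, 2.45 and 1.95 in DMSO, overlapping groups that only just passed (log2 fold change -0.24 ± 0.10, adjusted p = 0.0482). The call of RARS2 was lost on leaving out any library except DMSO library 3, and that of WARS2 on leaving out any library except BRQ library 1 and DMSO library 3. Without the filter on low values neither passed (adjusted p = 0.0549 for RARS2 and 0.0973 for WARS2).

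A small set of mitochondrial enzymes moved the other way. PARS2, the proline enzyme (chromosome 1, 54756898 to 54764523), had 6.2, 6.75 and 7.09 FPKM in BRQ, against 4.28, 3.3 and 2.76 in DMSO. It had the highest log2 fold change of all tested members (0.80 ± 0.11, adjusted p = 1.11e-04). HARS2, the histidine enzyme, had 36.9, 35.8 and 36.7 FPKM in BRQ, against 29.8, 29 and 29.5 in DMSO (log2 fold change 0.30 ± 0.04, adjusted p = 1.26e-04). YARS2, the tyrosine enzyme, had 16.8, 14.7 and 15.3 FPKM in BRQ, against 13.3, 12.1 and 11.4 in DMSO (log2 fold change 0.32 ± 0.07, adjusted p = 0.00203). In all 3 genes every BRQ value lay above every DMSO value.

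The remaining mitochondrial enzymes did not pass. LARS2, the leucine enzyme, had 8.95, 9.44 and 8.47 FPKM in BRQ and 8, 8.38 and 8.83 in DMSO, EARS2, the glutamate enzyme, 6.18, 7.67 and 6.88 against 7.35, 6.97 and 7.39, and MARS2, the methionine enzyme, 4.8, 4.19 and 4.6 against 4.31, 4.39 and 4.87. AARS2 averaged 7.05 ± 0.422 FPKM in BRQ and 6.43 ± 0.121 in DMSO, and the valine enzyme VARS2 averaged 7.13 ± 0.593 and 7.58 ± 1.09. Exons of VARS2 overlap those of GTF2H4 on the same strand over 22% of their length. Human mitochondria have no glutamine enzyme of their own and instead convert glutamate on the tRNA with GATB, GATC and QRSL1. Chosen after their values were seen, GATB averaged 6.91 ± 0.265 FPKM in BRQ and 9.7 ± 0.211 in DMSO (adjusted p = 9.61e-05), GATC 18.9 ± 1.21 and 14.4 ± 0.718 (adjusted p = 3.79e-04), and QRSL1 2.27 ± 0.373 and 2.42 ± 0.475 (adjusted p = 0.663).

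Setting each cytosolic transcript against its mitochondrial counterpart gave 18 pairs over 17 amino acids, with FARSA and FARSB each paired with FARS2 and EPRS1 paired with EARS2 and PARS2. The cytosolic transcript was above the mitochondrial one in every library in 17 of the 18 pairs, and the median excess in DMSO was 7.02-fold. The log2 ratio of FPKM + 1 was lower in all 3 BRQ libraries in 9 pairs, higher in 4 and overlapping in 5, so it was separate in 72.2% of pairs, beside 67.2% of single tested genes. These ratios are a description, since 3 libraries against 3 cannot give an exact two-sided permutation p under 0.1.

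The ratio shifted most for proline, tyrosine and phenylalanine. The log2 ratio of EPRS1 to PARS2 was 2.95, 2.90 and 2.90 in BRQ, against 3.66, 3.98 and 4.17 in DMSO. That of YARS1 to YARS2 was 1.72, 1.85 and 1.80 in BRQ, against 2.69, 2.73 and 2.84 in DMSO. In both pairs the cytosolic gene fell and the mitochondrial gene rose. That of FARSA to FARS2 was 5.54, 5.53 and 5.53 in BRQ, against 4.55, 4.63 and 4.76 in DMSO, higher in every BRQ library. FARS2 passed the filter only through its DMSO values, and its own fold change was 0.03 with the span trend removed. Both genes passed in 11 pairs, in the same direction in 6 (FARSB with FARS2, and isoleucine, arginine, serine, threonine and tryptophan) and in opposite directions in 5 (FARSA with FARS2, and histidine, asparagine, proline and tyrosine). The median shift over the pairs was -0.13.

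**Figure D3:**
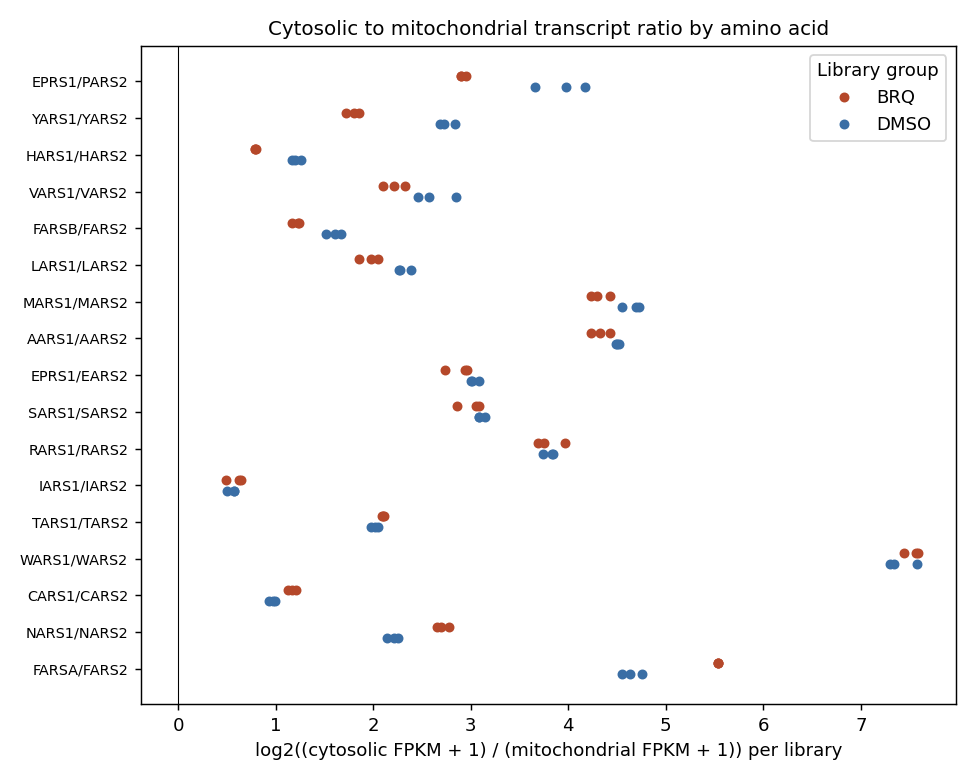
Log2 ratio of cytosolic to mitochondrial FPKM (each + 1, x axis) in every BRQ and DMSO library for 17 pairs, ordered by the shift. EPRS1/PARS2 at the top lies lower in BRQ (2.92 against 3.94 on average) and FARSA/FARS2 at the bottom lies higher (5.53 against 4.65).

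HARS1 and HARS2 lie head to head on chromosome 5, with 84 bases between their annotated starts, and moved in opposite directions. The ratio of HARS1 to HARS2 was 1.74, 1.75 and 1.76 in BRQ, against 2.34, 2.29 and 2.43 in DMSO. The stretch between the starts is shown because the genes, with opposite changes, share it. It spans chr5:140691371-140691454 on the strand of HARS2 (RefSeq, GRCh38.p14), reading towards HARS2 from left to right, all in lower case since no part is singled out.
HARS1-HARS2: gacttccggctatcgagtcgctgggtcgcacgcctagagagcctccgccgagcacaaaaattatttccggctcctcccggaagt
Some exons of HARS2 in GENCODE 29 overlap those of HARS1 on the other strand (11.7% of its exon length), which leaves the split of those reads uncertain.

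In all, 8 such pairs of a member and a gene of the table had divergent RefSeq starts within 1000 bases, at 84 to 351 bases from each other. Both genes passed in 5 pairs, in the same direction in 2 and in opposite directions in 3. Among 662 divergent pairs of tested genes in the whole table, both passed in 39.4%, and 63.2% of those moved in the same direction. With so few member pairs nothing is read from this, and the calls of HARS1, RARS2 and WARS1 were lost without single libraries, as given above. KARS1 rose with TERF2IP, a telomere protein gene (log2 fold change 0.24 ± 0.07, adjusted p = 0.00886), and WARS1 fell with WDR25 (-0.18 ± 0.07, adjusted p = 0.0381). SARS2 fell while MRPS12, a mitochondrial ribosomal protein gene, rose, with 25.4, 27.2 and 28.6 FPKM in BRQ, against 24.2, 24.1 and 24.7 in DMSO (adjusted p = 0.031). RARS2 fell while ORC3, of the origin recognition complex, rose (0.25 ± 0.07, adjusted p = 0.0115). Next to EARS2, which did not pass, UBFD1 rose to 29.8, 29.7 and 29.2 FPKM in BRQ, against 18.5, 17.5 and 17.8 in DMSO. Exons of some GENCODE 29 transcripts overlap the partner's on the other strand over 10.8% of SARS2, 6.46% of EARS2, 4.51% of WARS1 and 4.33% of KARS1, so the split of those reads is uncertain too.

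The composite element bound by ATF4 with a C/EBP partner was searched as TGATGNAA on both strands in the 250 bases before each RefSeq start, for the 33 of 41 members with an entry. It was present in 4 of the 33 members (12.1%), beside 3.89% of 27305 genes. The more specific TGATGCAA, which is part of the first motif, was in 2 of them (AARS1 and IARS1), beside 0.967% of genes. The matches are shown because they let the 4 members with the element be set beside their values. Each lies in a window of at most 30 bases on the strand of its gene, with the match in capitals, which on that strand reads as the reverse complement in the first 3.
AARS1, chr16:70289675-70289704, minus strand: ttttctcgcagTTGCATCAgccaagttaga
GARS1, chr7:30594834-30594863, plus strand: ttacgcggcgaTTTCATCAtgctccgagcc
IARS1, chr9:92293698-92293721, minus strand: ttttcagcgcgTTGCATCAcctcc
YARS2, chr12:32756076-32756105, minus strand: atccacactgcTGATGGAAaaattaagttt
Of these 4 genes GARS1 and IARS1 fell, AARS1 did not pass and YARS2 rose, as given above. The match of GARS1 lies before the later of its listed starts.

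Over the whole table the fold change differed with gene length. Among all tested genes, the median log2 fold change was 0.18, 0.15, 0.07 and -0.15 in quartiles of rising genomic span. Members that fell had a median span of 42.5 kb, and those that rose 10.3 kb. With each library's trend with span removed, 13 cytosolic members still fell and 3 rose, while 4 mitochondrial enzymes fell and 4 rose. FARS2 spans 522 kb, and its log2 fold change then was 0.03 (adjusted p = 0.79). NARS2 (-0.15, adjusted p = 0.0932) and IARS1 (-0.09, adjusted p = 0.055) no longer passed, and LARS2 rose (0.34, adjusted p = 2.95e-04). SARS1 (-0.89), FARSB (-0.74), YARS1 (-0.65), SARS2 (-0.80) and PARS2 (0.70) still passed, while NARS1, RARS2 and WARS2 did not.

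**Figure D4:**
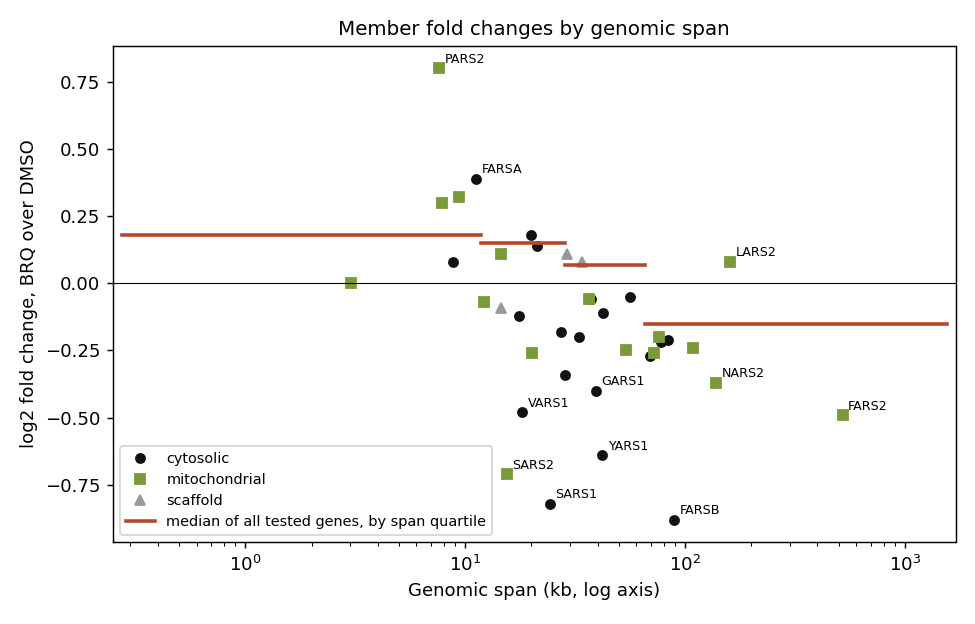
Log2 fold change of each member reported by name (y axis) against the genomic span of its gene (x axis, kb, log scale), with the median of all tested genes in each span quartile as red lines (0.18, 0.15, 0.07 and -0.15). SARS1, YARS1, VARS1 and SARS2 lie far under the median of their quartile, and PARS2 lies above it.

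Genes around tRNA charging were counted from lists of known members. Of 27 tested genes of the amino acid response, counted as ATF4 and its targets, 13 fell (48.1%) and 4 rose (14.8%), with a median log2 fold change of -0.09. Of all tested genes 25.2% fell and 36.9% rose, and 62.1% passed, close to the 63% of this list. The count of decreases in the list was 11 without DMSO library 1 and 16 under either rescaling. ATF4 had 32.1, 30.4 and 30.1 FPKM in BRQ, against 52, 49.8 and 49.9 in DMSO (log2 fold change -0.69 ± 0.04, adjusted p = 5.08e-07). MTHFD2, of mitochondrial folate metabolism, had 32.7, 33.9 and 33.2 FPKM in BRQ, against 54.6, 54.8 and 56.5 in DMSO (adjusted p = 2.64e-07). DDIT4, an inhibitor of mTORC1 signalling, and SLC7A1, a carrier of basic amino acids, also fell (log2 fold changes -0.59 ± 0.04 and -0.49 ± 0.06). The 4 genes that rose, named after their values were seen, were ATF3 (0.69 ± 0.09), DDIT3 (0.28 ± 0.04), SHMT2 (0.22 ± 0.04) and SLC3A2 (0.18 ± 0.04). The list thus moved in both directions. Exons of DDIT3 overlap those of MARS1 on the other strand, so its reads are uncertain. XPOT, the exporter of tRNA from the nucleus, named after its values were seen, averaged 33.2 ± 1.45 FPKM in BRQ and 44.1 ± 1.31 in DMSO (adjusted p = 3.55e-05). Upstream of ATF4, among 8 eIF2alpha kinases and related genes, 4 rose (50%) and 1 fell (12.5%), beside 36.9% and 25.2% of all tested genes. PPP1R15A, which directs the phosphatase to eIF2alpha, fell to 71 ± 0.813 FPKM in BRQ, against 104 ± 3.82 in DMSO (adjusted p = 1.31e-06). EIF2S1, the alpha subunit itself, and the kinase EIF2AK1 rose (log2 fold changes 0.34 and 0.41, adjusted p = 1.55e-04 and 1.57e-04). PPP1R15B and, named after its values were seen, the kinase EIF2AK2 rose less (0.14 and 0.17, adjusted p = 0.0171 and 0.0185). Exons of EIF2AK1 overlap those of AIMP2 on the other strand, so its reads are uncertain too. The count of 4 was 2 under either rescaling.

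Charged tRNAs are handed to elongation factors. Of 17 tested charging and delivery partners, 7 fell (41.2%) and 5 rose (29.4%), beside 25.2% and 36.9% of all tested genes. The cytosolic carrier EEF1A1 had 833, 786 and 748 FPKM in BRQ, against 1249.2, 1240.9 and 1201.6 in DMSO (log2 fold change -0.64 ± 0.05, adjusted p = 9.58e-07), and its paralog EEF1A2 fell too (-0.90 ± 0.07). Subunits of its exchange factor, EEF1D and EEF1G, fell as well (-0.48 ± 0.04 and -0.46 ± 0.04). EEF1A1 has many close pseudogene copies, so its reads are uncertain. The mitochondrial counterparts TUFM and TSFM, named after their values were seen, rose (0.21 ± 0.04 and 0.42 ± 0.07, adjusted p = 0.00153 and 5.50e-04). Of 20 tested genes of tRNA end processing and splicing, 11 rose (55%) and 3 fell (15%), beside 36.9% and 25.2% of all tested genes. Among subunits of RNase P, which trims the front end of tRNAs, POP5 averaged 36.8 ± 1.72 FPKM in BRQ and 21 ± 1.7 in DMSO, POP7 averaged 66.1 ± 6.67 and 40.6 ± 2.99, and RPP25 averaged 46.6 ± 2.76 and 32.7 ± 1.81. POP1, the largest protein of the complex, fell to 2.86 ± 0.198 FPKM in BRQ, against 5.13 ± 0.316 in DMSO (adjusted p = 2.56e-05).

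Since WARS1 is a known target of interferon gamma, 12 tested genes of that response were set beside it. Of these 10 rose (83.3%) and none fell, with a median log2 fold change of 0.60, whereas WARS1 was at -0.11. Among all tested genes 36.9% rose and 25.2% fell. SOCS1, a feedback inhibitor, had 12.5, 11.7 and 11.2 FPKM in BRQ, against 5.85, 6.74 and 6.13 in DMSO (log2 fold change 0.82 ± 0.07, adjusted p = 3.12e-06). The peptide transporter TAP1 (0.46 ± 0.04), GBP1 (1.02) and the transcription factor IRF1 (0.85) rose as well. The difference between WARS1 and these genes was not tested.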

How the data were processed

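RNA was sequenced from 6 libraries, 3 BRQ and 3 DMSO, grouped and numbered by the sample titles. The authors deposited FPKM values per gene and library, and depth and gene lengths were not stated. The submitters' processing notes name fastp, HTSeq and hg38; an aligner, a strand setting and an annotation are not given in the sources used here. All columns of library values were used. Steps between low values gave relative depths, and with GENCODE 29 exon lengths a rough depth of 31.8 M fragments in BRQ library 1 (quartiles over 1089 genes 25.5 and 37). By the definition of FPKM, a gene at 1 FPKM in that library thus rests on roughly 31.8 fragments per kilobase of exon.

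Genes averaging 1 FPKM or more were tested on the log2(FPKM + 1) scale with limma 3.58.1 (R 4.3.3), two-sided, with a mean-variance trend, treatment as the sole term and Benjamini-Hochberg adjustment over all tested genes. The test was checked on simulated data with independent noise and 200 changed genes. Since 6638 genes passed in the real data, that check does not cover the present setting. No set test was run, and members are described by counts beside those of all tested genes. Members and lists were chosen with earlier results of these data known. Values in every library are given for the 6 cytosolic and 6 mitochondrial members with the smallest adjusted p, all scaffold genes, the most abundant of each compartment, members called against most of their compartment, and members whose call or direction changed under an alternative. Up to 4 genes per list are named by smallest adjusted p. Others (XPOT, ATF3, DDIT3, SHMT2, SLC3A2, EIF2AK2, TUFM, TSFM, GATB, GATC, QRSL1) were chosen after their values were seen. Values of some members are not reported here, though the counts include them. Positions come from RefSeq (GRCh38.p14) by Entrez number, overlaps from GENCODE 29, and figures from matplotlib 3.10.9.

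Refits used a pseudocount of 0.1, all genes unfiltered, a filter at 5 FPKM, scaling by median-of-ratios or to TPM, robust variance, a replicate block, coding genes alone, removal of each library's trend with genomic span, counting without GARS1 and KARS1, each library left out in turn, and BRQ libraries 1 and 2 left out together.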

Additional observations from a re-analysis of the deposited data

How the results depend on the processing

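Of the 40 tested members, 24 kept both call and direction under the 16 refits, and of 636 member values 583 kept them, 35 lost the call with the sign kept, 7 gained it and 11 turned sign, among them FARS2, which also lost its call. The count of cytosolic decreases ran from 11 to 14 (12 without GARS1 and KARS1) and of increases from 2 to 4. Of the mitochondrial decreases, 8 in the reported fit, 5 remained in number at a filter of 5 FPKM, where fewer genes were tested, 4 with the span trend removed, 7 with the replicate block, 6 without BRQ libraries 1 and 2 and 6 to 8 with 1 library left out. With those BRQ libraries left out, 1 BRQ library remained, assumed to vary like DMSO, and 11 cytosolic members fell and 2 rose. The complex increases were 2 without a filter, 2 with the span trend removed and 1 to 2 with a library left out, and the scaffold increases 0 to 1 with a library left out. Of the eIF2alpha genes, 2 rose and 2 fell under median-of-ratios scaling, and 2 rose and 2 fell under TPM scaling; 2 to 5 rose with a library left out. With the span trend removed, 1 interferon-gamma gene fell. The median ratio shift of -0.13 ran from -0.17 to -0.06 with a library left out and was -0.07 without BRQ libraries 1 and 2. Sign turned for AIMP1 without those libraries (-0.02), EARS2 without BRQ library 1 (0.01), FARS2 (0.03) and QARS1 (-0.02) with the span trend removed, and MARS2, at 0.00 in the reported fit, under median-of-ratios (-0.05) and TPM scaling (-0.05), the span trend (-0.13) and with a library left out (-0.03 to 0.05, with 2 values above 0). The cause of these changes was not tested.

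Same-numbered libraries deviated together only weakly (correlations 0.144, 0.00804 and 0.0584 for numbers 1 to 3). Libraries of unlike number gave correlations from -0.137 to 0.105. The labels do not say whether the numbers pair samples, and so few libraries cannot settle it. The replicate block left 13 cytosolic members lower and 3 higher, and 3 mitochondrial enzymes higher. It ended the call of RARS2 (adjusted p = 0.0524).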
